A study of Mus musculus with 6 samples.

Results

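The 10 genes described here write or erase histone marks and DNA methylation in germinal center (GC) B cells, and they were followed in sorted mouse GC B cells with a conditional deletion of the SUMO protease gene Senp1. They were chosen by symbol from the 19680 genes of the deposited table: Ezh2, Eed, Suz12, Kmt2d, Crebbp, Ep300, Kdm6b, Dnmt1, Tet2 and Tet3, and all 10 had a row. Of these Crebbp and Ep300 acetylate histones, and the rest act on methylation. The 3 cKO libraries came from Senp1flox/flox Cgamma1-Cre mice, in which a Cre recombinase expressed from the locus of the IgG1 constant region deletes Senp1 in B cells that respond to antigen. The 3 WT libraries came from Senp1flox/flox mice, which carry the floxed alleles and no Cre, so an effect of Cre itself and an effect of Senp1 loss cannot be told apart. All mice were C57BL/6, aged 6 to 8 weeks, and received 100 µg of NP-CGG, a protein antigen with a small hapten, into the abdominal cavity. Splenic cells positive for B220 and FAS and negative for CD38 were sorted on day 14, and their RNA was sequenced. Whether the libraries stem from separate mice is not stated, so every p-value reflects only how far these libraries spread, which may be technical. In bulk RNA, fewer cells of a kind and less RNA per cell cannot be told apart.

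GC B cells divide fast while they mutate their antibody genes, and chromatin regulators hold them in that state. EZH2, with its partners EED and SUZ12, forms Polycomb repressive complex 2 (PRC2), which methylates lysine 27 of histone H3 and keeps plasma cell genes and cell cycle inhibitors silent, and KDM6B removes that mark. KMT2D methylates lysine 4 of histone H3 at enhancers, and CREBBP and EP300 acetylate histones there, against the deacetylases recruited by the GC repressor BCL6. DNMT1 copies DNA methylation after each round of replication, and TET2 and TET3 oxidize it. The genes of KMT2D, CREBBP, EP300, EZH2 and TET2 are mutated in human lymphomas that arise from GC B cells.

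Senp1 itself measured 373, 425 and 398 normalized counts in cKO replicates 1 to 3 and 915, 868 and 891 in WT replicates 1 to 3. Its means of 399 ± 26.3 and 891 ± 23.7 (SD, n = 3 libraries each) lay apart with no overlap, yet missed the threshold used here (limma adjusted p = 0.111, edgeR 0.145), while DESeq2 called it (adjusted p = 2.78e-09). The libraries held 3019152 to 9657005 reads assigned to genes in cKO and 5160902 to 10339054 in WT. Replicate 1 of both groups stood apart on the first principal component (33.2% of the variance). The mitochondrial share of reads was 3.66%, 12.3% and 19.1% in cKO replicates 1 to 3 and 2.71%, 7.92% and 9.83% in WT replicates 1 to 3. All 9 GC B cell markers were present, with a summed level of 18910 to 21738 normalized counts in cKO and 21213 to 22065 in WT. Of these 9 markers 7 had a fitted log2 fold change below 0, and 3, all lower in cKO, had an unadjusted p under 0.05 (median -0.35). All 8 naive or memory B cell markers were fitted higher in cKO (median 0.65), and 0 genes of either list passed. T cell markers (9 of 9 present) summed to 517 to 1628 normalized counts in cKO, highest in replicate 2, and 641 to 699 in WT. Macrophage markers, 8 of 9 fitted higher in cKO (median 0.78), summed to 331 to 575 in cKO and 150 to 357 in WT, and the 7 plasma cell markers to 8165 to 17587 and 8942 to 13608, both highest in cKO replicate 2. Without cKO replicate 2 the median was -0.21 for the GC B cell, 0.40 for the naive or memory B cell and 0.064 for the macrophage markers, and without WT replicate 3 it was 0.22 for the macrophage markers. The part of other cells in the values of the regulators was not tested.

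None of the 10 genes differed between cKO and WT past the test. The test was limma on log2(normalized count + 1) over 14678 genes, with Benjamini-Hochberg adjusted p under 0.05 as the threshold, and adjusted p-values of the 10 genes ran from 0.915 to 0.994. Over all genes limma called 0% as higher and 0% as lower. Without adjustment, p was under 0.05 for 438 genes with a higher (2.98%) and 318 with a lower (2.17%) level in cKO, against 275 and 403 with library totals as the only scaling. Among the 10 genes 1, Suz12, had an unadjusted p under 0.05 and was also the 1 gene with every cKO library below every WT library, a pattern found in 5.28% of all genes. None of the 10 had every cKO library above every WT library (6.28% of all genes), so 1 of the 10 separated cKO from WT completely, against 11.6% of all genes in either direction. The fitted log2 fold change was below 0 for 7 of the 10 genes, against 50.2% of all genes, and its median was -0.11, against -0.0019 over all genes. That direction rests on single libraries: the median was 0.010 without cKO replicate 1 and 0.043 without WT replicate 3. Applied to recovered reads, edgeR called 0% of all genes in either direction, and DESeq2 called 0.111% as higher and 0.0369% as lower, none of them among the 10. The authors' deposited table gives each of the 10 genes an adjusted p of 0.9996.

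**Figure D1:**
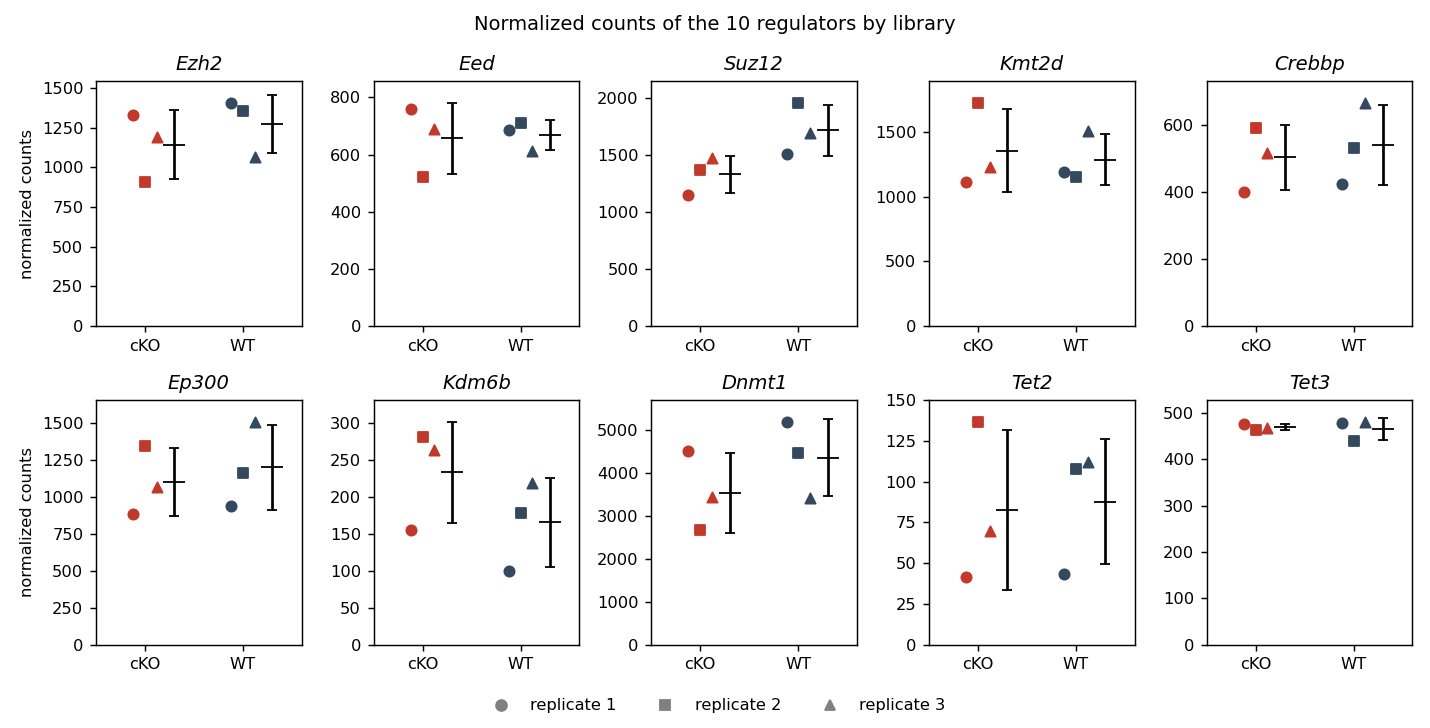
Normalized counts (vertical axes, from 0) of the 10 regulators in each cKO and WT library. Symbols mark replicates 1 to 3, and the bar beside each group is the mean with its SD (n = 3). Suz12 is the 1 gene whose cKO points all lie below its WT points.

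The catalytic subunit of PRC2, Ezh2 (ENSMUSG00000029687, chromosome 6, 47530139 to 47595341 of GRCm38, minus strand), measured 1332, 905 and 1189 normalized counts in cKO replicates 1 to 3 and 1404, 1354 and 1064 in WT replicates 1 to 3. The groups overlapped, and cKO replicate 2 was the lowest of the 6 libraries. The means were 1142 ± 217 in cKO and 1274 ± 183 in WT, a log2 fold change of -0.17 (95% confidence interval -0.58 to 0.24, limma adjusted p = 0.942). Eed (ENSMUSG00000030619, chromosome 7, 89954654 to 89980983, minus strand), the subunit that binds the methylated histone tail and stimulates EZH2, measured 759.7, 520.1 and 688 in cKO and 686, 711 and 611 in WT. The cKO values lay on both sides of the WT values, with replicate 2 again lowest, and the log2 fold change was -0.044 (-0.42 to 0.33, adjusted p = 0.986). The log2 difference of Eed had opposite signs within replicate 1 (0.15) and within replicates 2 and 3 (-0.14). For Ezh2 these values were -0.076 and -0.21. Each value within replicate 1, here and below, sets 1 cKO library against 1 WT library. Their shared number was not taken to pair them. Ezh2, Eed and Dnmt1 had their lowest value of all in cKO replicate 2, 3 of the 10 genes against 19.1% of all genes.

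Suz12 (ENSMUSG00000017548, chromosome 11, 79993106 to 80034123, plus strand), the scaffold that holds PRC2 together, measured 1146, 1367 and 1467 normalized counts in cKO and 1504, 1949 and 1689.8 in WT. Every cKO library was below every WT library, with a gap of 37.4 between the highest cKO and the lowest WT value. The means were 1326 ± 164 and 1714 ± 224, a 1.29-fold lower level in cKO (log2 fold change -0.37, 95% confidence interval -0.71 to -0.025). The unadjusted limma p was 0.0385 and the adjusted p 0.915, so the difference did not pass. That difference was -0.39 within replicate 1, with 1 library per group, and -0.36 within replicates 2 and 3. It ranged from -0.46 to -0.27 when single libraries were left out. With a term for replicate 1 the adjusted p of Suz12 was 0.409, its smallest over 18 alternatives. That fit called 0.0136% of all genes as higher and 0.00681% as lower, none of the 10 among them.

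Of the other PRC2 genes, 9 of the 10 listed (the homolog Ezh1 and the partners of the core) had a row and 0 passed in either direction. Mtf2, which recruits PRC2 to unmethylated CpG islands, averaged 1113 ± 109 in cKO and 1490 ± 279 in WT (unadjusted p = 0.0378). Jarid2, another recruiter of PRC2, averaged 237 ± 34.2 and 199 ± 20.5 in cKO and WT. The ratio of Ezh2 to its homolog Ezh1, which replaces it in resting cells, was 3.30, 2.12 and 3.28 on the log2 scale in cKO and 3.21, 3.31 and 2.69 in WT. So normalized counts of Ezh2, not scaled for length, exceeded those of Ezh1 in all 6 libraries, least in cKO replicate 2. The ratio of Eed to Suz12 averaged -1.03 ± 0.40 in cKO and -1.35 ± 0.19 in WT on the log2 scale of normalized counts, with overlapping groups. None of the 20 PRC1 genes, whose complex binds the PRC2 mark, passed either. The PRC1 gene with the smallest unadjusted p was Pcgf2 (0.0155), with few counts, 11.8 ± 2.30 and 4.02 ± 0.42 normalized counts in cKO and WT.

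The demethylase gene Kdm6b (ENSMUSG00000018476, chromosome 11, 69398508 to 69413675, minus strand) had the largest fitted fold change in the upward direction among the 10. It measured 155, 281 and 263 normalized counts in cKO and 100.1, 178 and 219 in WT. The groups overlapped, since cKO replicate 1 lay below WT replicates 2 and 3. The means were 233 ± 68.5 and 166 ± 60.2, a 1.43-fold higher fitted level in cKO with a log2 fold change of 0.52 (-0.23 to 1.26, limma adjusted p = 0.928). The log2 difference was 0.62 within replicate 1 and 0.46 within replicates 2 and 3, and without WT replicate 1 the fitted value was 0.19. Naive and memory B cell markers (8 of 8 present, none at 0) were lowest and highest in the same libraries as Kdm6b, with summed levels of 4044 to 8793 normalized counts in cKO and 2413 to 5510 in WT. The sort for FAS positive, CD38 negative cells is meant to remove naive and memory B cells, and their part in the values of Kdm6b was not tested. The log2 ratio of the writer Ezh2 to the eraser Kdm6b was 3.11, 1.69 and 2.17 in cKO and 3.81, 2.93 and 2.28 in WT, with overlapping groups. Kdm6a, the X-linked demethylase of the same mark, averaged 314 ± 69.9 and 361 ± 43.7 in cKO and WT, and Uty, its relative on the Y chromosome, 90.1 ± 25.6 and 117 ± 36.6, neither past the test.

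**Figure D2:**
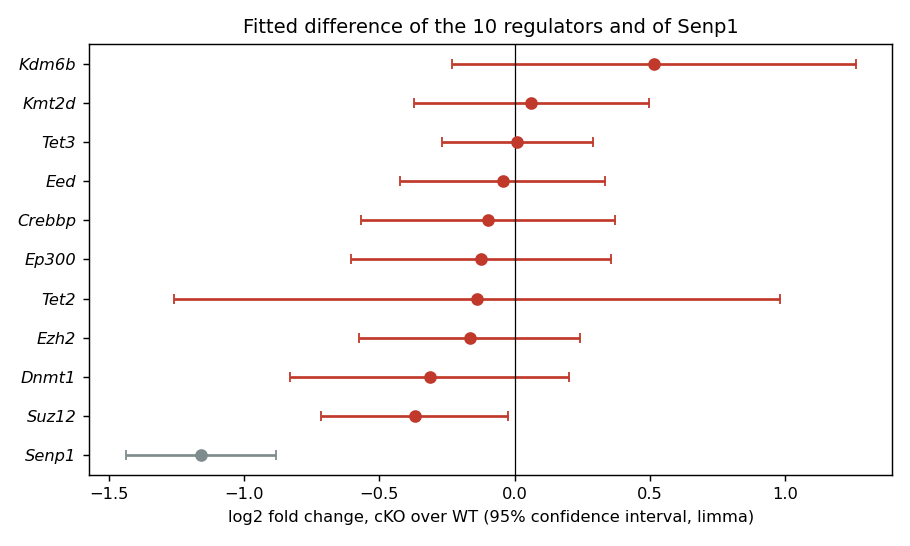
Fitted log2 fold change of cKO over WT (horizontal axis) with its 95% confidence interval for the 10 regulators and, in gray, Senp1. The interval of Suz12 ends at -0.025, those of the other 9 regulators include 0, and that of Senp1 runs from -1.44 to -0.88.

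Kmt2d (ENSMUSG00000048154, chromosome 15, 98831669 to 98871204, minus strand) measured 1117, 1725 and 1234 normalized counts in cKO and 1197, 1152 and 1514 in WT. The highest and the lowest of the 6 values were both in cKO. The means were 1359 ± 323 and 1287 ± 197 (log2 fold change 0.063, interval -0.37 to 0.50, adjusted p = 0.981). This value changed sign to -0.017 with library totals alone, and it was -0.099 within replicate 1 and 0.14 within replicates 2 and 3. Of 18 other genes of lysine 4 methylation and demethylation, 17 had a row and 0 passed. Kmt2a, a methyltransferase of the same family that acts at promoters, averaged 2267 ± 384 in cKO and 3162 ± 592 in WT (unadjusted p = 0.0281). Its homolog Kmt2b averaged 1098 ± 226 in cKO and 833 ± 117 in WT (unadjusted p = 0.0599).

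The acetyltransferase genes Crebbp (ENSMUSG00000022521, chromosome 16, 4081328 to 4213997, minus strand) and Ep300 (ENSMUSG00000055024, chromosome 15, 81585351 to 81652077, plus strand) kept nearly the same ratio in all libraries. Crebbp measured 401, 592 and 517 normalized counts in cKO and 425, 531 and 665 in WT. Ep300 measured 883, 1340.0 and 1064 in cKO and 935, 1156 and 1505 in WT. Both genes were lowest in replicate 1 of each group, both overlapped between the groups, and both were highest in WT replicate 3. The log2 ratio of Crebbp to Ep300 was -1.14, -1.18 and -1.04 in cKO and -1.14, -1.12 and -1.18 in WT. That is an SD of 0.070 in cKO and 0.030 in WT, against 0.40 and 0.19 for the ratio of Eed to Suz12. The ratio of Dnmt1 to Uhrf1, described below, was similarly steady, with SDs of 0.055 in cKO and 0.074 in WT.

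Between cKO and WT, Crebbp averaged 503 ± 96.4 and 540.4 ± 120.0 normalized counts (log2 fold change -0.097, interval -0.57 to 0.37, limma adjusted p = 0.972). Ep300 averaged 1096 ± 230.2 and 1199 ± 287 (log2 fold change -0.12, -0.61 to 0.36, adjusted p = 0.967). The differences within replicate 1 and within replicates 2 and 3 were -0.085 and -0.10 for Crebbp and -0.083 and -0.14 for Ep300. Of 10 other acetyltransferase genes and acetylation readers 0 passed, nor did any of the 11 genes of the deacetylase corepressors that BCL6 recruits. In the deacetylase list, Hdac5 averaged 194 ± 30.4 in cKO and 119 ± 17.4 in WT (log2 fold change 0.69, unadjusted p = 0.00638). Tbl1x, a subunit of the NCoR and SMRT corepressors, averaged 643 ± 61.9 in cKO and 799.6 ± 44.6 in WT (-0.32, unadjusted p = 0.0384). Kat2a, the GCN5 acetyltransferase, averaged 404 ± 96.9 and 318 ± 21.2, and its homolog Kat2b 161 ± 12.3 and 188 ± 3.43, in cKO and WT.

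The maintenance DNA methyltransferase gene Dnmt1 (ENSMUSG00000004099, chromosome 9, 20907209 to 20959888, minus strand) had the highest level per kilobase of the 10 genes and measured 4507, 2653 and 3425 normalized counts in cKO and 5179.7, 4448 and 3406 in WT. WT replicate 3 lay below cKO replicates 1 and 3, so the groups overlapped. The means were 3529 ± 931 and 4345 ± 891, a 1.24-fold lower fitted level in cKO with a log2 fold change of -0.31 (-0.83 to 0.20, limma adjusted p = 0.928). It was -0.20 within replicate 1 and -0.37 within replicates 2 and 3, and without cKO replicate 2 the fitted value was -0.12. The log2 ratio of Dnmt1 to Uhrf1, the protein that brings DNMT1 to newly replicated DNA, was 0.71, 0.64 and 0.74 in cKO and 0.77, 0.62 and 0.70 in WT. Its means of 0.70 ± 0.055 and 0.70 ± 0.074 differed by -0.0030, less than the spread of either group.

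The order of the libraries was nearly the same for Dnmt1 as for genes of DNA replication. As log2 deviations from the mean of the 6 libraries, Dnmt1 stood at 0.23, -0.53 and -0.17 in cKO and 0.43, 0.21 and -0.17 in WT. The median deviation of 23 S phase genes was 0.18, -0.46 and -0.19 in cKO and 0.37, 0.25 and -0.13 in WT. The 20 G2/M genes had medians of 0.48, -0.90 and -0.21 in cKO and 0.73, 0.31 and -0.37 in WT. In all of these cKO replicate 2 was lowest and WT replicate 1 highest, and Ezh2 shared both positions. Summed S phase levels were 22349 to 36298 normalized counts in cKO and 28226 to 40481 in WT, and the part of the cell cycle in the values of Dnmt1 and Ezh2 was not tested. In cKO, 22 of the 23 S phase genes were fitted lower than in WT (median log2 fold change -0.28). So were all 20 G2/M genes (median -0.46), against 50.2% of all genes. The fitted values were -0.31 for Dnmt1 and -0.17 for Ezh2. The genes of a list share the same 6 libraries, so these counts are not independent observations. Without cKO replicate 2 the S phase median was -0.14 (20 of 23 lower) and the G2/M median -0.080 (14 of 20 lower), and without WT replicate 1 the G2/M median was -0.14. In these lists 0 genes passed, with Slbp, which binds histone mRNA, at 909 ± 162 and 1209 ± 121, the polymerase gene Pola1 at 649 ± 170 and 893 ± 154, the mitotic gene Hmmr at 344 ± 159 and 561 ± 156 and the checkpoint kinase gene Bub1 at 382 ± 109.9 and 513 ± 115 in cKO and WT.

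**Figure D3:**
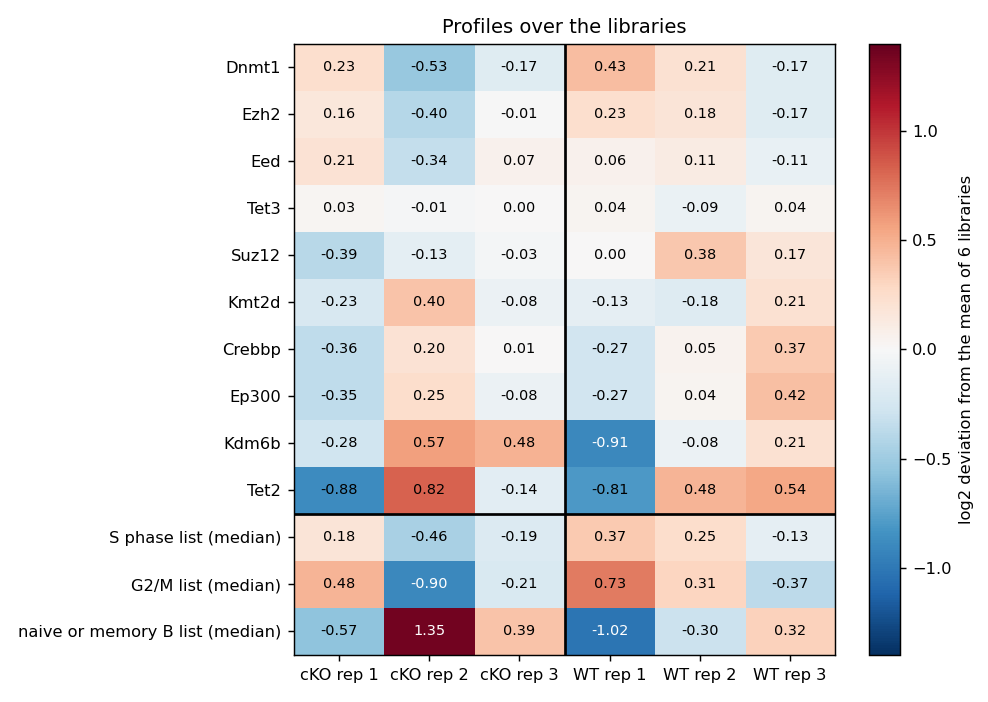
Log2 deviation of each of the 10 regulators from its own mean over the 6 libraries, with the median deviation of 3 marker lists below the line (color and printed value). Dnmt1, Ezh2 and Eed are lowest in cKO replicate 2, while Crebbp, Ep300, Kdm6b, Suz12 and Tet2 are lowest in replicate 1 of each group.

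Of the 9 regulators with a promoter entry, 3 hold a sequence of the kind bound by E2F factors, which drive genes of S phase. The letters searched were TTTCCCGC, TTTGGCGC, TTTCGCGC and TTTGCCGC on both strands, in windows of 300 bases from 250 before to 50 after the annotated start (RefSeq, GRCm38.p6). A match was found in 744 of 32851 promoters of that length (2.26%). It was found in 3 of the 11 windows of these 9 regulators: those of Ezh2, Suz12 and the Dnmt1 start at the lower coordinate. Every string searched contains CG, and the matching windows of Ezh2, Suz12 and Dnmt1 hold 31, 41 and 33 CpG. The median over all promoters is 7. The windows of the regulators without a match hold 17 to 57, and the further windows of Dnmt1, also without a match, hold 12 and 2. The share of matches among promoters of like CpG content was not tested. The windows are shown because Ezh2 and Dnmt1 varied together with the S phase genes, with matches in capitals. In Dnmt1 the first match is TTTCGCGC on the opposite strand. A match is a description of letters, and binding by E2F factors was not tested. Suz12, whose window holds a match, was highest in WT replicate 2 and lowest in cKO replicate 1. Eed, lowest in cKO replicate 2 like Ezh2 and Dnmt1, has 0 matches in its window.
Ezh2, chr6:47594981-47595280, minus strand: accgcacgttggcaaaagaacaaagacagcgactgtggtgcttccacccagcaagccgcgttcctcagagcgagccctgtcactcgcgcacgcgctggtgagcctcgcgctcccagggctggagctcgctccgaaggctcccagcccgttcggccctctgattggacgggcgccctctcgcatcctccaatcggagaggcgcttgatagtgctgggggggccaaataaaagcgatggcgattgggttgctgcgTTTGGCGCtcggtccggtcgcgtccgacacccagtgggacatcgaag
Dnmt1, chr9:20952574-20952873, minus strand: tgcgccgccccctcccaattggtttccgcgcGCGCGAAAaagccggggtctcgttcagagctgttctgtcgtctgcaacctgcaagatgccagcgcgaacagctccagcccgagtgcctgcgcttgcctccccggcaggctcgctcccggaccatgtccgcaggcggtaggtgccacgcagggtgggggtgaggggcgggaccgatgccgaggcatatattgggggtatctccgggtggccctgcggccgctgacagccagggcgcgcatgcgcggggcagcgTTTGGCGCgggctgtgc
Suz12, chr11:79992856-79993155, plus strand: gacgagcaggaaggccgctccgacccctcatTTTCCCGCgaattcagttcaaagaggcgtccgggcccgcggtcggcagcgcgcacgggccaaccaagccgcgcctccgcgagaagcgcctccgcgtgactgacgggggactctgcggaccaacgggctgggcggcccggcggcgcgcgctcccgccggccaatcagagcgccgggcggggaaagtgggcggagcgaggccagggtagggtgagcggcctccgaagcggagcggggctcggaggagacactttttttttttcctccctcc

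Tet2 (ENSMUSG00000040943, chromosome 3, 133463679 to 133545139, minus strand) was the most variable of the 10 genes and Tet3 (ENSMUSG00000034832, chromosome 6, 83362373 to 83459084, minus strand) the least, with SDs of 0.66 and 0.045 over the 6 libraries on the log2 scale. Tet2 measured 41.2, 137 and 69.4 normalized counts in cKO and 43.5, 108 and 112 in WT, from 34 to 131 reads per library. It was lowest in replicate 1 of each group, and the cKO range enclosed the WT range. The means were 82.4 ± 49.0 and 87.6 ± 38.3 (log2 fold change -0.14, interval -1.26 to 0.98, limma adjusted p = 0.984). A 2-fold decrease lies inside that interval and a 2-fold increase just outside it. The difference was -0.075 within replicate 1 and -0.17 within the other replicates.

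Tet3 measured 476, 463 and 468 normalized counts in cKO and 479, 439 and 481 in WT. All 6 libraries lay within a narrow band, with the 3 cKO values inside the WT range. The means were 469 ± 6.59 and 466 ± 24.0, a log2 fold change of 0.0096 with the narrowest interval of the 10 (-0.27 to 0.29, adjusted p = 0.994). It was -0.0094 within replicate 1 and 0.019 within replicates 2 and 3, and -0.070 with library totals alone. The log2 ratio of Tet2 to Tet3 was -3.53, -1.76 and -2.75 in cKO and -3.46, -2.03 and -2.10 in WT, so Tet3, whose exons are of nearly the same length, had the higher normalized count in every library.

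Of 16 other genes of DNA methylation and its removal, 15 had a row and 0 passed. Idh1, whose enzyme makes the cofactor of TET proteins in the cytosol, averaged 43.7 ± 16.3 in cKO and 70.0 ± 9.39 in WT (log2 fold change -0.72, unadjusted p = 0.0459). Zbtb38, which binds methylated DNA, averaged 660.4 ± 117 and 826 ± 10.9 (unadjusted p = 0.0545). Among 16 genes that act on lysines 9, 36 and 79 of histone H3, 0 passed, with the demethylase gene Kdm3b at 1039.5 ± 92.3 and 1227 ± 43.5 and the methyltransferase gene Nsd2 at 1575 ± 304 and 1999 ± 322 in cKO and WT. In the PRC1 list Bcor, a corepressor of BCL6, averaged 652 ± 77.2 and 848 ± 165. Over the 8 chromatin lists together, 100 genes were tested and 0 passed. At an unadjusted limma p under 0.05 there were 2 higher and 4 lower (6.00%). Over all genes the shares were 2.98% higher and 2.17% lower. The median log2 fold change of the 100 genes was -0.089, against -0.0019 over all genes.

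Per kilobase of exon, the 10 genes spanned a wide range of levels. The length counts every base in any annotated exon of a gene, and which transcripts these cells express was not tested. Dnmt1 was highest, at 478 ± 126 normalized counts per kilobase in cKO and 589 ± 121 in WT, followed by Suz12 at 268 ± 33.2 and 347 ± 45.2. Ezh2 (171 ± 32.5 and 191 ± 27.5) and Eed (171 ± 32.1 and 175 ± 13.6) came next and did not differ beyond their spread. Ep300 stood at 76.8 ± 16.1 and 84.0 ± 20.1, Kmt2d at 68.2 ± 16.2 and 64.6 ± 9.90, and Crebbp at 37.2 ± 7.12 and 39.9 ± 8.86. The lowest were Kdm6b (33.5 ± 9.85 and 23.8 ± 8.66), Tet3 (28.1 ± 0.39 and 27.9 ± 1.44) and Tet2 (4.89 ± 2.91 and 5.19 ± 2.27). Neighbors in this order whose ranges over the 6 libraries overlapped were Dnmt1 and Suz12, Ezh2 and Eed, Ep300 and Kmt2d, Crebbp and Kdm6b, and Kdm6b and Tet3. Compared within each library, Dnmt1 still lay above Suz12, Ep300 above Kmt2d and Crebbp above Kdm6b. Ezh2 and Eed, and Kdm6b and Tet3, changed order between libraries. Dnmt1 lay above 96.9% of the tested coding genes on this scale, and Tet2 above 22.6%. In this order the 3 genes of the PRC2 core and Dnmt1 were the top 4.

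**Figure D4:**
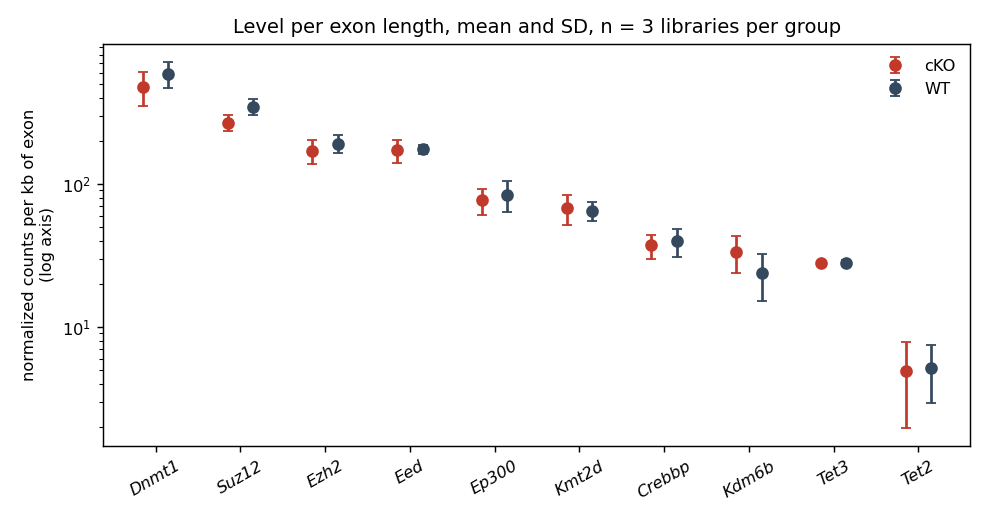
Normalized counts per kilobase of exon (vertical log axis) of the 10 regulators in order of their mean, as mean and SD of the 3 cKO and the 3 WT libraries. Dnmt1 is highest and Tet2 lowest in both groups, and the cKO and WT error bars overlap for all but Suz12, where they end side by side.

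Replicate 1 was the lowest or the highest library of both groups for 7 of the 10 genes. Suz12, Crebbp, Ep300, Kdm6b and Tet2 were lowest in replicate 1 of both groups, which is 5 of the 10 genes against 19.7% of all genes. Ezh2 and Dnmt1, 2 of the 10, were highest in replicate 1 of both groups, against 21.7% of all genes. For Tet2, replicate 1 differed from the mean of replicates 2 and 3 by -1.22 in cKO and -1.32 in WT on the log2 scale, and for Kdm6b by -0.81 and -0.97. For Dnmt1 the same differences were 0.58 in cKO and 0.41 in WT. Over all genes the medians were -0.010 and 0.035. Replicate 1 also had the most reads and the lowest mitochondrial share of each group, and the part of either in these values was not tested.

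A search of 6756 genes with a mean of at least 100 normalized counts gave the most similar profile for each regulator described here, measured as the root mean square difference of log2 deviations over the 6 libraries. For Dnmt1 it was Mcm3, a subunit of the replicative helicase (0.043). Eed was most like Dcaf13 (0.030), Suz12 like Nudt4 (0.045), Kmt2d like Tob2 (0.062) and Ep300 like Phtf2 (0.044). Crebbp was most like Rictor, a subunit of the mTORC2 kinase complex (0.019), and Tet3 like Prr14 (0.029). Kdm6b was most like Fcer2a (0.064), the CD23 receptor of naive follicular B cells, and Tet2 like Cdkn1b (0.13), which encodes the cell cycle inhibitor p27. Among the 10 genes themselves the closest pair was Crebbp and Ep300 (0.046), followed by Ezh2 and Eed (0.091). With 6 libraries per profile, many genes lie close to any given one.

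Of the 10 genes 5 share exon bases with an annotated gene on the opposite strand, and Ep300 shares 54 bases with a small RNA gene. The shared part was at most 6.82% of the exon length, for Eed. The partners listed in the table had means of at most 0.48 normalized counts, and without a stated strand setting their reads cannot be told apart from those of the regulator.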

How the data were processed

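RNA of sorted GC B cells was sequenced in 3 cKO and 3 WT libraries, grouped by the titles in the labels. Aligners (HISAT, HISAT2, TopHat2), SAMtools, HTSeq, DESeq2 and the mm10 build stand in the submitters' processing notes without roles. Annotation release and strand setting: not given in the sources used here. The authors deposited 1 table whose library columns hold a signal per gene, read counts after division by 1 size factor for each library, called normalized counts here. Beside it, per the file headers, stand the authors' log2 fold change, test score, p-value and adjusted p-value. Every deposited value was a whole multiple of its column's smallest value (100% within 0.01 read), so read counts were recovered. Each read equals 0.542 to 2.04 normalized counts in cKO and 0.506 to 1.06 in WT, so low genes are least precise in cKO replicates 2 and 3.

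limma 3.58.1 (R 4.3.3) with a mean-variance trend was fitted to log2(value + 1) for 14678 genes (mean of 1 or more over the 6 libraries), genotype alone, with Benjamini-Hochberg adjustment. Fold changes on this scale understate those of low genes. edgeR 4.0.16 and DESeq2 1.42.0 on recovered reads were alternatives. The limma script was run on simulated data in which replicate 1 did not differ from the others. That run does not measure how well the test works on libraries like these. Exon lengths and positions are from GENCODE M21 (GRCm38), in which 19589 gene identifiers were found, and 3 list genes were matched by identifier under an older symbol. The members, lists, tests and alternatives were chosen with earlier results of these data known. Besides the 10 regulators and Senp1, the text names the 2 genes with the smallest unadjusted p of each pathway list and the nearest profile of each regulator, by rule, except that of Ezh2, which is not reported here. A planned count of SUMO motifs in the proteins was not run, because no protein sequences were used here.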

Additional observations from a re-analysis of the deposited data

How the results depend on the processing

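None of the 10 regulators and no gene of the pathway lists was called under any of the 18 alternatives (pseudocounts of 0.5 and 5, filters, scalings, the replicate block, the term for replicate 1, edgeR, DESeq2, single libraries left out, replicates 2 and 3 alone). Over all genes, where limma called 0, the replicate block gave 1, the term for replicate 1 gave 3 (Senp1, Cfap74 and Cacna1h) and DESeq2 20, while edgeR gave 0 (611 at an unadjusted p under 0.05, against 756 by limma). The counts at an unadjusted p under 0.05 were 1333 with the block, 1345 with the term and, with single libraries left out, 345 to 1363.

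The fitted log2 fold changes of Ezh2, Suz12, Kdm6b and Dnmt1 kept their sign under all 18 alternatives. Kmt2d turned to -0.017 and Tet3 to -0.070 with library totals alone, which moved the median of all genes to -0.078, and Tet3 to -0.0055 with TMM factors. With single libraries left out, values ranged from -0.16 to 0.11 for Eed, -0.12 to 0.19 for Kmt2d, -0.26 to 0.064 for Crebbp, -0.29 to 0.054 for Ep300, -0.58 to 0.27 for Tet2 and -0.034 to 0.033 for Tet3, so each of these 6 changed sign. The ranges were -0.29 to -0.0077 for Ezh2, -0.51 to -0.12 for Dnmt1 and 0.19 to 0.79 for Kdm6b. The median over the 10 ranged from -0.13 to 0.043, above 0 without cKO replicate 1 (0.010) and without WT replicate 3. The cause of these shifts was not tested.

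The replicate numbers were not taken to pair the libraries: deviations from the group means correlated by 0.49, 0.055 and 0.20 for replicates 1 to 3, and cKO replicate 2 correlated best with WT replicate 3 (0.17). The block called none of the 10 regulators. Depth limits Tet2 most, with 34 to 131 reads per library.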
